A study of Homo sapiens with 6 samples.

Results

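The genes described here are 50 that act in the mitotic spindle, at the kinetochore and in the passage from G2 into mitosis. They are a list of symbols drawn up with earlier results of these data known, and all 50 were found once among the 58735 named genes of the deposited count table, on 19 chromosomes. They were measured by RNA-seq of the human line 8505C, which was established from an anaplastic carcinoma of the thyroid. The 2 groups are 3 libraries labelled HHEX shRNA, here KD1, KD2 and KD3, and 3 libraries labelled control shRNA, here control1, control2 and control3. HHEX is a homeobox transcription factor. All cells were otherwise untreated and grown in the same way, and the labels call the libraries biological replicates. The control samples carry a control hairpin in their titles and wild type as their genotype. The sources used here do not say how many hairpin sequences or clones were used. In each group 2 of the 3 titles share a first replicate number. Whether these come from the same replicate, and which table columns they are, is not given. The tests and SDs below take the 3 libraries of a group as independent, and P-values measure only the spread between these libraries.

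A cell enters mitosis when cyclin B and CDK1 form an active kinase, which CDC25 phosphatases switch on. Spindle microtubules, moved and sorted by kinesin motors, attach to each chromosome at its kinetochore through the NDC80 complex, and the spindle checkpoint holds the anaphase-promoting complex in check until all chromosomes are attached. Transcripts of these genes accumulate late in the cell cycle, under FOXM1 and the B-MYB and MuvB complex, and their summed level is widely read as a sign of how much a culture divides.

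Named genes summed to between 13333245 and 15144176 counts per library. HHEX (ENSG00000152804, chr10:92689951-92695646, plus strand) had 14.8, 7.94 and 7.13 CPM in KD1, KD2 and KD3, against 12.7, 12.8 and 11.999 CPM in the controls, so that in the library labelled KD1 the targeted gene goes against the label. KD1, KD2 and KD3 are therefore names of libraries as labelled, and no value below is a measure of HHEX loss. CPM are counts scaled to library size with factors from the trimmed mean of M values (TMM). Of 9 thyroid markers 3 passed the filter on low counts. NKX2-1 had 38.01, 34.99 and 18.004 CPM in KD1, KD2 and KD3, against 26.8, 50.5 and 34.6 CPM in the controls, while TG, SLC5A5 and TSHR had at most 0.299 CPM in any library, near the 0.198 to 0.225 CPM that a floor of 3 counts stands for. The 8 leukocyte markers summed to 3.04 to 4.25 CPM in the HHEX shRNA libraries and 2.99 to 4.85 CPM in the controls, most of it CD14, with 2.12 to 4.25 CPM in HHEX shRNA libraries and 2.77 to 4.72 CPM in controls, while LYZ had 0 counts in each library. The 9 fibroblast markers summed to 14.7 to 48.3 CPM in the HHEX shRNA libraries and 43.9 to 56.1 CPM in the controls, and the 6 endothelial markers to 5.15 to 14.99 CPM in the HHEX shRNA libraries and 15.00 to 16.4 CPM in the controls. KD3 was the lowest library for both lists. In KD3 the 3 tested fibroblast markers and the 2 tested endothelial markers all lay below the control mean. Their median differences there were −0.30 and −1.63 in log2 CPM. The 7 epithelial markers, of which 5 passed the filter, summed to 2158, 1915 and 1399 CPM in KD1, KD2 and KD3, against 1268 to 1625 CPM in the controls. CDH1, also on this list, did not pass, with 0 counts in each HHEX shRNA library and at most 1 in a control. Their genes differed in direction: the tight junction protein CLDN1 had 11.95, 10.7 and 82.7 CPM in KD1, KD2 and KD3, against 63.9, 64.4 and 84.3 CPM in the controls, and was lower in KD1 and KD2 (edgeR adjusted p = 6.84e-05 and 5.83e-05). The keratin KRT7 had 736, 659.6 and 467 CPM in KD1, KD2 and KD3, against 371, 439.5 and 409.8 CPM in the controls, and was higher in both. EPCAM was lower and KRT8 higher in KD1, with adjusted p of 0.124 and 0.0521 in KD2. The part of these markers in the results was not tested.

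In 2 of the 3 HHEX shRNA libraries the mitotic genes stood high, and in the third they stood low. Together the 50 genes took 0.906%, 0.957% and 0.277% of the counts of KD1, KD2 and KD3, against 0.444%, 0.416% and 0.358% in control1, control2 and control3. Thus KD1 and KD2 lay above every control, and KD3 lay below every control. In bulk RNA, a different share of dividing cells and a different amount of transcript per cell cannot be told apart. Of the 50 genes 49 passed the filter on low counts, and 48 of these had at least 60 counts in every library. PRC1 did not pass. For each tested gene the difference of a library from the control mean was taken in log2 CPM. The median difference was 1.25 in KD1, the same in KD2 and −0.58 in KD3, against 0.16, 0.17 and −0.35 in control1, control2 and control3, with each control taken against the other controls' mean. Over all 14280 tested genes these medians lay between −0.02 and 0.01. In KD1 48 of the 49 genes lay above the control mean, in KD2 all 49, and in KD3 2, while in control3 43 of 49 lay below the mean of the other controls. More than 2-fold above the control mean were 36 genes in KD1 (3.94% of all tested genes), 39 in KD2 (4.27%) and 0 in KD3 (1.92%). More than 2-fold below it were 0 in KD1 (8.49%), 0 in KD2 (8.46%) and 3 in KD3, namely AURKB, KIF20A and SPC24 (3.63%). The controls also differed from each other over these genes, with control3 lowest.

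**Figure D1:**
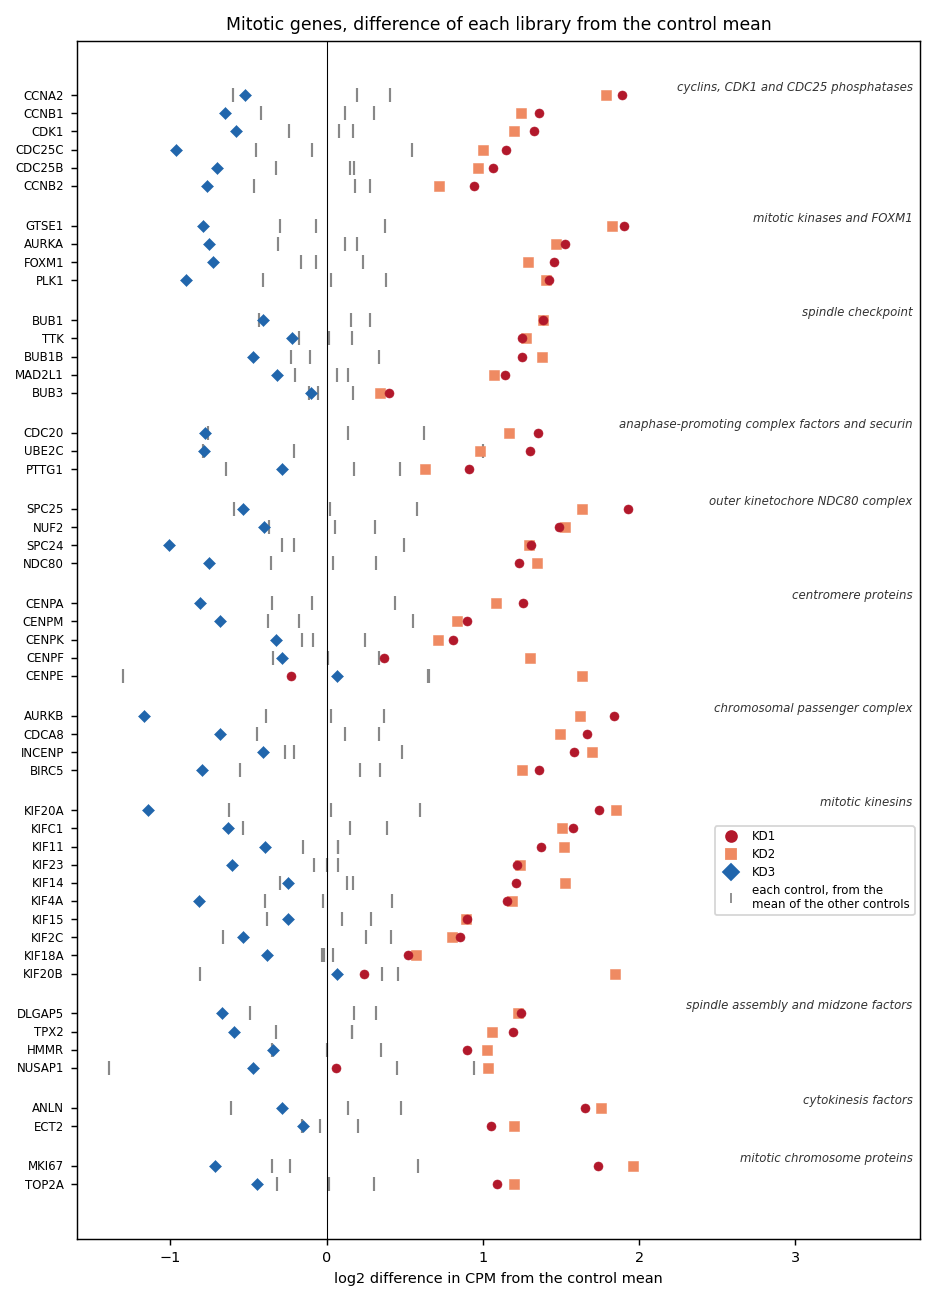
Difference of each library from the control mean in log2 CPM (horizontal axis) for the 49 tested mitotic genes, grouped by role. Circles, squares and diamonds are KD1, KD2 and KD3, and grey bars are the controls, each against the other controls' mean. KD1 and KD2 lie right of the controls for most genes, with medians of 1.25 each, and KD3 lies left of 0 for 47 genes, with a median of −0.58.

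Set group against group, 0 of the 49 genes passed edgeR's quasi-likelihood test at a Benjamini-Hochberg adjusted p under 0.05, where 0.105% of all tested genes were called higher and 0.0770% lower. At an unadjusted p under 0.05 there were 8, all higher, where 20.6% of all tested genes passed in either direction. ECT2 had the smallest adjusted p, with a log2 fold change of 0.81 (edgeR, SE 0.31, adjusted p = 0.206). DESeq2 also called 0 of the 49, where it called 6.04% of all tested genes in either direction. It had 21 of the 49 at an unadjusted p under 0.05, where 21.1% of all tested genes passed. The fitted log2 fold change was positive for all 49 genes, between 0.22 (NUSAP1) and 1.39 (GTSE1), with a median of 0.84 against −0.01 over all tested genes. For no gene did the 3 HHEX shRNA libraries lie on one side of the 3 controls, where 11.6% of all tested genes had them all above and 13.3% all below. One library decided the group count. Without KD3, 46 of the 50 genes were called higher (16.5% of the genes tested in that fit), with KIF11 at a log2 fold change of 1.47 (edgeR, SE 0.11, adjusted p = 1.81e-06). The other leave-outs of 1 library gave 0 called members. In each of those fits at most 1 of all the genes tested was called, so that this count says little of the members. Dropping the filter on low counts gave 4, namely ECT2, HMMR, KIF15 and MAD2L1 (2.56% of the genes tested were then higher).

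Each HHEX shRNA library was then set apart against the 3 controls, in a fit in which a lone library is assumed to vary as the controls do, so that the tests speak of libraries and not of the condition. In KD1 43 of the 49 genes were higher, where 7.98% of all tested genes were, and in KD2 44, where 8.54% were. None was lower in either, where 7.43% and 7.71% were. In KD3 0 were higher (0.770% of all tested genes) and 1, AURKB, was lower (0.336%), while 30 were lower at an unadjusted p under 0.05 (7.72%). That adjusted count depended on the controls, since it was 9, 19 and 8 without control1, control2 and control3, where 2.06%, 2.07% and 0.439% of the genes tested were lower, and 19 with no filter on low counts (0.847%). Set against each other, KD1 exceeded KD3 in 44 of the 49 genes (5.15% of all tested genes) and KD2 exceeded KD3 in 45 (4.54%), and neither was lower than KD3 in any (4.75% and 4.44%). Between KD1 and KD2 0 of the 49 differed at an adjusted p under 0.05 (0.00% of all tested genes in each direction), and 3, namely CENPE, CENPF and KIF20B, did so at an unadjusted p under 0.05 (1.48%). Lower in KD1 than in KD2 were 2 members with no filter on low counts, CENPF and KIF20B (0.0388%), 2 without control1, CENPE and KIF20B (0.0674%), and all 3 without control2 (0.129%). The 43 genes higher in KD1, the 44 higher in KD2 and the comparisons with KD3 share libraries and are not independent of each other. For 46 genes KD1 and KD2 both lay above all 3 controls (27.6% of all tested genes), and for 43 KD3 lay below all 3 (31.6%). Both held for 43 genes, a pair of conditions set after the values were seen, which 7.00% of all tested genes met.

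The promoters of cell cycle genes are known to carry short elements through which late expression is set, namely the CHR element (cell cycle genes homology region), CCAAT boxes, which NF-Y binds, and E2F sites. The search took TTTGAA and also TTCGAA as the CHR element, CCAAT as the box, and TTCCCGC and also TTGGCGC as E2F-like sites. RefSeq promoters of GRCh38.p14, from 250 bases before to 50 bases after a gene's start, were found for 42 of the 50 genes and searched on both strands. A CHR element was in 31 of the 42 (73.8%), against 16.6% of 27305 RefSeq promoters of the same length. At least 1 CCAAT box was in 33 (78.6%, against 35.7%), at least 2 were in 21 (50%, against 11.3%), and an E2F-like site was in 9 (21.4%, against 9.33%). Both a CHR element and a CCAAT box were in 26 (61.9%, against 6.58%). Matches to CCAAT and CHR overlapped in 2 of the 42 promoters, and matches to CCAAT and E2F in 1. A match is a description of letters and not a mapped site. Genes with and without a CHR element in this window had median differences of 1.25, 1.32 and −0.47 in KD1, KD2 and KD3 over 30 tested genes with one, and 1.15, 1.24 and −0.65 over 11 without. The promoters below are those of both B cyclins, of CDC20 and PLK1 as well-known late genes, and of the members farthest above (SPC25) and farthest below (CENPE) the controls in KD1. They are given 5′ to 3′ along the gene, as RefSeq places its start, which can differ from the start in the count table, with CHR elements and CCAAT boxes of either strand in capitals.
CCNB1 (chr5:69166900-69167199, plus strand): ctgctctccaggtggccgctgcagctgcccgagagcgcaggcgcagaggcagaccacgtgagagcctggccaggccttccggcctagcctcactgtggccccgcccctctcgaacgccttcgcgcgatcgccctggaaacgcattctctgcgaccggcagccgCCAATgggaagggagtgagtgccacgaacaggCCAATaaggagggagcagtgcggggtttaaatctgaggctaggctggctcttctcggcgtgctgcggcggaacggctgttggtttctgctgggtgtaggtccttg
CCNB2 (chr15:59104896-59105195, plus strand): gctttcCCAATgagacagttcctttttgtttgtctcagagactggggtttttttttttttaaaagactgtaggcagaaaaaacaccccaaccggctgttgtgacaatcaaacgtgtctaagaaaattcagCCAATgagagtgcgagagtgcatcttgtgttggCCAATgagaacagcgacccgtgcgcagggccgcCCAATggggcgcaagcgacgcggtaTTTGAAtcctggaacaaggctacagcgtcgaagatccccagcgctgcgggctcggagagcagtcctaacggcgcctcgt
CDC20 (chr1:43358731-43359030, plus strand): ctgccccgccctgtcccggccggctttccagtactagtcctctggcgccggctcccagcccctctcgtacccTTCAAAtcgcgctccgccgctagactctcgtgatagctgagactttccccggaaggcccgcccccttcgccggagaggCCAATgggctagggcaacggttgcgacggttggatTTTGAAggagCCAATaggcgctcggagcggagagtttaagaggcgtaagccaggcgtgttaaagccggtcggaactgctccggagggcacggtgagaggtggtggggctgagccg
PLK1 (chr16:23678639-23678938, plus strand): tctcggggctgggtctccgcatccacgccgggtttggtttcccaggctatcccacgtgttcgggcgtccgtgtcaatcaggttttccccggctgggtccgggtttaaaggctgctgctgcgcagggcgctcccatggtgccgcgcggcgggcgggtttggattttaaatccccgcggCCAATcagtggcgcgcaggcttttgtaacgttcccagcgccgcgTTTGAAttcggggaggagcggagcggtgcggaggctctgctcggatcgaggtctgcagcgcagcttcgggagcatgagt
SPC25 (chr2:168890381-168890680, minus strand): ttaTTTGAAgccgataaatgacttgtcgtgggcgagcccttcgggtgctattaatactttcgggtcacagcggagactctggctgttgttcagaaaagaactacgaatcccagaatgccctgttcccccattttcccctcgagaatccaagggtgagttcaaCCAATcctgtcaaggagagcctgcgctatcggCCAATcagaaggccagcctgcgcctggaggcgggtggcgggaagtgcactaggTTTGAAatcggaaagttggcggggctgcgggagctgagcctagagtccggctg
CENPE (chr4:103198294-103198593, minus strand): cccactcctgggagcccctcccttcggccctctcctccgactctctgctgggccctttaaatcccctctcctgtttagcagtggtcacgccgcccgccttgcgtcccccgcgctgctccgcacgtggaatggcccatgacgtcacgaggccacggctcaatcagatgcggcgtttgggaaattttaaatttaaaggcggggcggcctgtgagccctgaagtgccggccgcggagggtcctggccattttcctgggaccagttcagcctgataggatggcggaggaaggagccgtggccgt
Counted from the start, with the base before it as −1, CCNB2 and PLK1 each have a CHR element at −29, with 4 and 1 CCAAT boxes upstream of it. CCNB1 has 2 CCAAT boxes and no CHR match in this window, CDC20 has CHR matches at −178 and −65, and SPC25 at −247 and −3. CENPE has no match to any of the 3 motifs in this window.

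Cyclins, CDK1 and the CDC25 phosphatases drive entry into mitosis, and all 6 were higher in KD1 and in KD2, with median differences of 1.24 and 1.10, against −0.68 in KD3. CCNA2, the cyclin of S phase and early mitosis, lay farthest above the controls in both, with 164, 153 and 30.6 CPM in KD1, KD2 and KD3, against 48.1, 53.1 and 33.3 CPM in the controls. CCNB1 (chr5:69167010-69178245, plus strand), the main cyclin of CDK1, had 373, 344 and 92.6 CPM in KD1, KD2 and KD3, against 153, 167 and 119.7 CPM in the controls. KD1 and KD2 stood at 2.54 and 2.34 times the control mean of 147 ± 24.4 CPM (SD, n = 3), with log2 fold changes of 1.35 (edgeR, SE 0.18, adjusted p = 0.000453) in KD1 and 1.23 (edgeR, SE 0.18, adjusted p = 0.000831) in KD2. CCNB2, the other B cyclin, had 141, 120.3 and 42.9 CPM in KD1, KD2 and KD3, against 82.9, 79.4 and 58.8 CPM in the controls. Its log2 fold changes were 0.93 (edgeR, SE 0.19, adjusted p = 0.0059) in KD1 and 0.71 (edgeR, SE 0.19, adjusted p = 0.0254) in KD2, smaller in value than those of CCNB1, a difference between genes that was not tested. CDK1, the kinase they activate, had 216, 197 and 57.5 CPM in KD1, KD2 and KD3, against 89.004, 92.8 and 76.8 CPM in the controls. For all 4 genes named so far KD1 and KD2 were the highest libraries and KD3 the lowest, so that the groups overlap. CDC25B and CDC25C, which remove inhibitory phosphates from CDK1, had log2 differences of 1.07, 0.97 and −0.70 and of 1.15, 1.00 and −0.96 in KD1, KD2 and KD3.

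The mitotic kinases and FOXM1 all were higher in KD1 and KD2, with medians of 1.49 and 1.43, against −0.77 in KD3, and in KD3 each of the 4 passed an unadjusted but not the adjusted threshold for a lower level. GTSE1, a microtubule-binding protein of G2 and mitosis, had 73.9, 70.1 and 11.3 CPM in KD1, KD2 and KD3, against 19.01, 23.3 and 17.1 CPM in the controls. In KD1 it was 3.73 times the control mean, and its adjusted p there, 9.7e-05, was the smallest among the 49 genes. AURKA, the kinase of centrosome maturation and spindle poles, had 233, 223 and 47.7 CPM in KD1, KD2 and KD3, against 88.03, 85.2 and 69.8 CPM in the controls. FOXM1, a transcription factor that acts on many late cell cycle promoters, had 107, 95.6 and 23.5 CPM in KD1, KD2 and KD3, against 43.5, 37.9 and 36.3 CPM in the controls. The transcript of the factor thus followed the same order of libraries as those of most other mitotic genes, with KD1 and KD2 above and KD3 below all controls. PLK1, a kinase of mitotic entry and of the kinetochore, had differences of 1.42, 1.40 and −0.90 in KD1, KD2 and KD3.

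Of the 5 spindle checkpoint genes, which delay anaphase while kinetochores are unattached, 4 were higher in KD1 and the same number in KD2, and BUB3 passed in neither. The medians were 1.25 and 1.28 in KD1 and KD2, against −0.32 in KD3. TTK, the kinase that starts the checkpoint signal, had 158, 161 and 56.8 CPM in KD1, KD2 and KD3, against 71.4, 66.8 and 60.97 CPM in the controls. BUB1, a checkpoint kinase at the kinetochore, had 169.9, 170.1 and 49.1 CPM in KD1, KD2 and KD3, against 74.03, 69.96 and 53.3 CPM in the controls. For TTK the KD3 value lay below all controls, as it did for BUB1, in each case by less than the range of the controls. MAD2L1, which with BUB1B binds CDC20, had 156, 148 and 56.6 CPM in KD1, KD2 and KD3, against 75.01, 72.5 and 64.2 CPM in the controls. BUB3 (chr10:123154277-123170467, plus strand), the adaptor that brings BUB1 and BUB1B to kinetochores, had 266, 256 and 188 CPM in KD1, KD2 and KD3, against 197, 219 and 192 CPM in the controls. It lay least above the controls of all tested members in KD2, with 1.32, 1.27 and 0.931 times the control mean in KD1, KD2 and KD3. Its log2 fold change was 0.40 (edgeR, SE 0.16, adjusted p = 0.106) in KD1 and 0.34 (edgeR, SE 0.16, adjusted p = 0.158) in KD2, and KD3 again lay lowest. BUB1B had differences of 1.25, 1.38 and −0.47.

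The anaphase-promoting complex factors and securin act at the end of the checkpoint, and here the controls varied widely. CDC20, the activator that the checkpoint holds back, had 245, 215 and 55.9 CPM in KD1, KD2 and KD3, against 102, 128 and 67.6 CPM in the controls. UBE2C, the ubiquitin-conjugating enzyme of the complex, had 153, 123 and 35.9 CPM in KD1, KD2 and KD3, against 56.2, 98.3 and 42.98 CPM in the controls. PTTG1, securin, whose breakdown frees separase, had 173, 142 and 75.2 CPM in KD1, KD2 and KD3, against 99.7, 114 and 68.1 CPM in the controls. All 3 were higher in KD1, and CDC20 alone was in KD2, with adjusted p of 0.0938 for UBE2C and 0.102 for PTTG1 there. Control2 was the highest control for each of the 3 and control3 the lowest, and UBE2C in control2 lay 1.00 on the log2 scale above the mean of the other controls. PTTG1 in KD3 lay within the range of the controls.

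The outer kinetochore NDC80 complex binds microtubules, and all 4 of its subunits were higher in KD1 and in KD2, with medians of 1.40 and 1.44, against −0.64 in KD3. NUF2, the partner of NDC80, had 113, 116 and 30.4 CPM in KD1, KD2 and KD3, against 41.3, 46.5 and 33.98 CPM in the controls. SPC25 had 50.8, 41.4 and 9.11 CPM in KD1, KD2 and KD3, against 13.4, 17.4 and 10.04 CPM in the controls. In KD1 SPC25 stood farther above the control mean than any other member, at 3.74 times. NDC80 itself had 86.4, 93.7 and 21.7 CPM in KD1, KD2 and KD3, against 37.4, 42.5 and 31.1 CPM in the controls. SPC24, which with SPC25 ties the complex to the inner kinetochore, had 42.8, 42.4 and 8.47 CPM in KD1, KD2 and KD3, against 15.6, 21.7 and 15.1 CPM in the controls. In KD3 all 4 subunits lay below every control, and SPC24 was at 0.485 times the control mean.

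Of 5 centromere proteins, which mark the centromere or build on it, 2 were higher in KD1 and 4 in KD2, with medians of 0.81 and 1.08, against −0.32 in KD3. CENPA, the histone variant that marks centromeres, had 22.01, 19.5 and 5.15 CPM in KD1, KD2 and KD3, against 8.76, 11.2 and 7.76 CPM in the controls. CENPK, of the inner kinetochore network, had 56.4, 52.7 and 25.6 CPM in KD1, KD2 and KD3, against 29.9, 35.98 and 30.8 CPM in the controls. Both were higher in KD1 and in KD2. CENPM, of the same network, had the fewest counts among the well-measured members, with 13.6, 13.02 and 4.45 CPM in KD1, KD2 and KD3, against 6.66, 9.38 and 6.06 CPM in the controls, with adjusted p of 0.062 in KD1 and 0.081 in KD2. CENPF, a large protein of the outer kinetochore, had 242, 462 and 154 CPM in KD1, KD2 and KD3, against 219, 160.0 and 188 CPM in the controls. CENPE (chr4:103105806-103198409, minus strand), a kinesin that brings chromosomes to the spindle equator, had 36.2, 132 and 44.3 CPM in KD1, KD2 and KD3, against 57.3, 23.1 and 57.3 CPM in the controls. For both genes KD2 stood apart from KD1, and for CENPE KD1 lay below the control mean, as for no other member with at least 60 counts in every library. The exact 95% Poisson intervals of CENPE, 33.2 to 39.4 CPM in KD1 and 126 to 138 CPM in KD2, do not overlap. They cover counting error only, and CENPE is the member on which these 2 libraries differed most. The intervals therefore cannot tell whether the 2 libraries are separate replicates.

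The chromosomal passenger complex corrects faulty attachments and later directs cytokinesis. All 4 of its genes were higher in KD1 and in KD2, with medians of 1.62 and 1.56, against −0.74 in KD3, and among the 11 roles these were the highest median in KD1 and the second highest in KD2. INCENP, the scaffold, had 151, 163 and 37.8 CPM in KD1, KD2 and KD3, against 62.7, 45.5 and 44.3 CPM in the controls. CDCA8, also called borealin, had 118, 105 and 23.02 CPM in KD1, KD2 and KD3, against 39.1, 43.2 and 30.1 CPM in the controls. AURKB (chr17:8204733-8210600, minus strand), the kinase of the complex, had 107, 92.3 and 13.2 CPM in KD1, KD2 and KD3, against 30.2, 35.4 and 24.9 CPM in the controls. AURKB was the only member called lower in KD3, with a log2 fold change of −1.19 (edgeR, SE 0.23, adjusted p = 0.0296), and the one with the widest contrast between KD1 and KD3, at 3.02 (edgeR, SE 0.27, adjusted p = 6.89e-05). BIRC5, survivin, had differences of 1.36, 1.25 and −0.80 in KD1, KD2 and KD3.

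**Figure D2:**
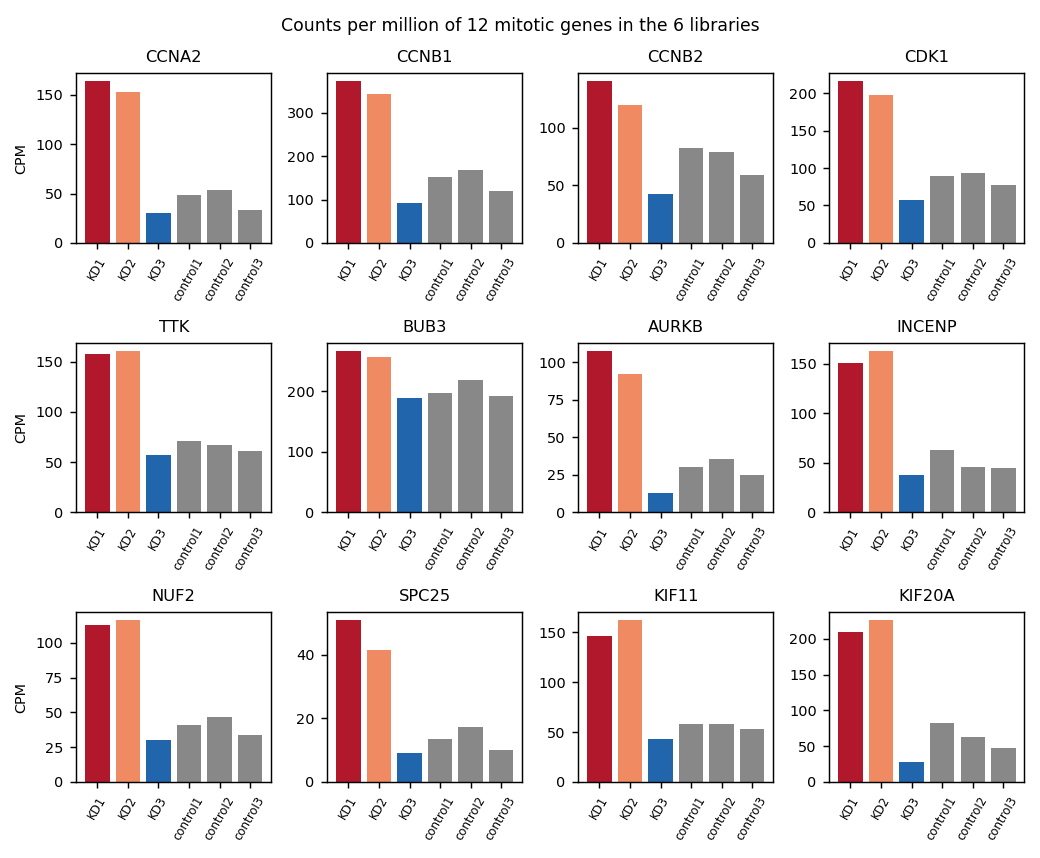
CPM (vertical axis, from 0, each panel with its own scale) of 12 mitotic genes in the 6 libraries, 1 bar per library, with KD1, KD2 and KD3 left of the grey controls. KD1 and KD2 exceed every control in each panel, for CCNB1 with 373 and 344 CPM against 119.7 to 167 CPM, and KD3 lies below every control in each panel.

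Mitotic kinesins build the spindle, move chromosomes and act in the cleavage furrow. Of 10, 9 were higher in KD1 and all 10 in KD2, with medians of 1.18 and 1.37, against −0.47 in KD3. KIF11 (chr10:92593286-92655395, plus strand), the motor that pushes spindle poles apart, had 146, 162 and 42.9 CPM in KD1, KD2 and KD3, against 58.4, 58.4 and 52.6 CPM in the controls. Its controls differed little, with a mean of 56.4 ± 3.36 CPM (SD, n = 3), and its adjusted p in KD2, 7.01e-05, was the smallest among the 49 genes. KIF11 lies upstream of HHEX on the same strand and ends 34555 bases before the HHEX start. KIF14, a motor of cytokinesis, had 90.3, 112 and 32.8 CPM in KD1, KD2 and KD3, against 42.1, 33.9 and 41.4 CPM in the controls. KIFC1, a minus-end motor that clusters spindle poles, had 154, 146 and 33.2 CPM in KD1, KD2 and KD3, against 61.5, 55.2 and 40.2 CPM in the controls. In KD3 each of these lay below all controls. KIF20A, which carries the passenger complex to the midzone, had 209.9, 226 and 28.2 CPM in KD1, KD2 and KD3, against 82.3, 63.4 and 46.8 CPM in the controls. KIF20A was at 0.440 times the control mean in KD3, and only AURKB was farther below on the log2 scale. KIF18A, which dampens chromosome movements, had 63.7, 66.1 and 34.03 CPM in KD1, KD2 and KD3, against 44.2, 43.9 and 45.3 CPM in the controls. It lay least above the controls of the 10 in KD2, at 1.49 times the control mean. KIF20B, a motor of late cytokinesis, had 35.1, 107 and 31.2 CPM in KD1, KD2 and KD3, against 36.8, 20.4 and 35.02 CPM in the controls. KIF20B was the exception in KD1, where its log2 fold change was 0.19 (edgeR, SE 0.28, adjusted p = 0.688), against 1.81 (edgeR, SE 0.25, adjusted p = 0.000898) in KD2. The other 4 had log2 differences in KD1, KD2 and KD3 of 1.22, 1.24 and −0.61 for KIF23, a centralspindlin subunit, 1.16, 1.19 and −0.82 for KIF4A, of the midzone, 0.90, 0.89 and −0.25 for KIF15, a spindle motor, and 0.85, 0.80 and −0.54 for KIF2C, which takes microtubules apart at centromeres.

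Among spindle assembly and midzone factors 3 of 4 tested genes were higher in KD1 and the same number in KD2, NUSAP1 being the exception in both. The medians were 1.04 and 1.05, against −0.53 in KD3. HMMR, a microtubule-binding protein of spindle poles, had 121, 133 and 51.3 CPM in KD1, KD2 and KD3, against 76.3, 65.1 and 55.4 CPM in the controls. TPX2, which activates AURKA on the spindle, had 588, 537 and 171 CPM in KD1, KD2 and KD3, against 278, 277 and 222 CPM in the controls. DLGAP5, which stabilises kinetochore fibres, had 175, 174 and 46.5 CPM in KD1, KD2 and KD3, against 85.9, 80.3 and 59.1 CPM in the controls. KD1 and KD2 lay above and KD3 below all controls for each of these. Both cytokinesis factors and both chromosome proteins were higher in KD1 and in KD2. ANLN, a scaffold of the cleavage furrow, had 843, 908 and 219.5 CPM in KD1, KD2 and KD3, against 334, 286 and 202 CPM in the controls. ECT2, the exchange factor that activates RhoA at the furrow, had 285, 315 and 123 CPM in KD1, KD2 and KD3, against 150.3, 135 and 128 CPM in the controls. ANLN in KD3 lay within the range of the controls. TOP2A, the topoisomerase that untangles sister chromatids, had 1153, 1246 and 398 CPM in KD1, KD2 and KD3, against 624, 546 and 467 CPM in the controls. MKI67, the proliferation marker that coats mitotic chromosomes, had 401, 469 and 73.4 CPM in KD1, KD2 and KD3, against 158, 108 and 103 CPM in the controls. MKI67 was the member farthest above the control mean in KD2, at 3.82 times.

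**Figure D3:**
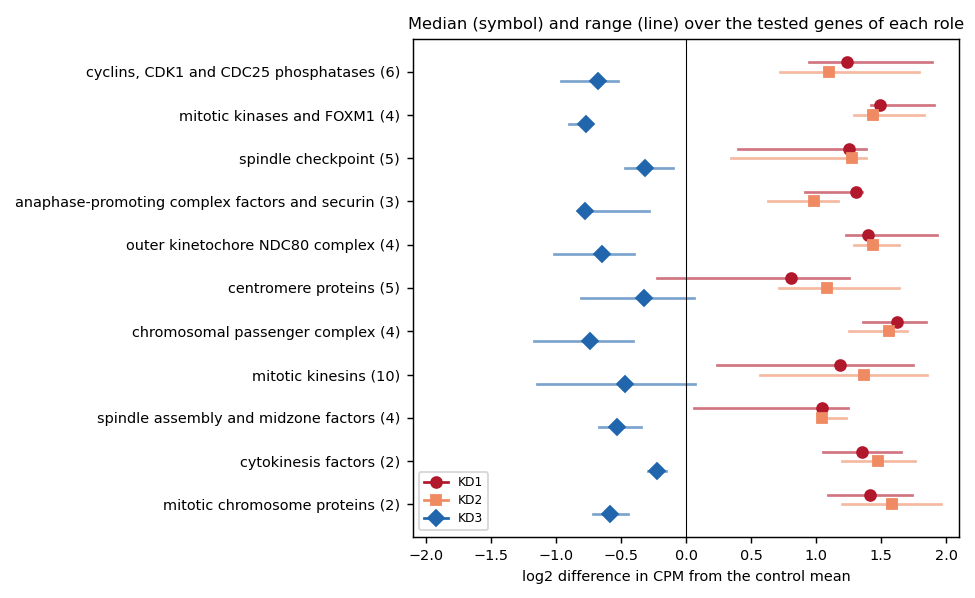
Median (symbols) and range (lines) of the log2 difference in CPM from the control mean (horizontal axis) over the tested genes of each of the 11 roles, with the number of genes in brackets, for KD1, KD2 and KD3. Medians lie between 0.81 and 1.62 in KD1, between 0.98 and 1.58 in KD2 and between −0.78 and −0.22 in KD3.

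The role medians all lay above 0 in KD1 and KD2 and below 0 in KD3. Their order is a description with no test, since each role holds few genes of the same libraries. In KD1 they ran from 0.81 for centromere proteins to 1.62 for the passenger complex, in KD2 from 0.98 for the anaphase-promoting complex factors to 1.58 for the chromosome proteins, and in KD3 from −0.78 for the anaphase-promoting complex factors to −0.22 for the cytokinesis factors. Cyclins with CDK1, checkpoint genes, kinesins and the NDC80 complex all lay between 1.10 and 1.44 in KD1 and KD2.

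The 3 members on which KD1 and KD2 differed at an unadjusted p under 0.05 have long transcripts. Of the 49 genes 6 have a longest GENCODE transcript over 6000 bases, namely BUB3, CENPE, CENPF, KIF14, KIF20B and MKI67, a limit chosen after the values were seen. Over these the log2 CPM of KD1 minus KD2 had a median of −0.62 (−1.86 to 0.06), and over the other 43 genes 0.06 (−0.98 to 0.32). Control2 minus the mean of the other controls had a median of −0.32 (−1.30 to 0.17) over the 6 and 0.18 (−0.21 to 1.00) over the other 43. Across the 49 genes the difference between KD1 and KD2 and the log2 transcript length had Pearson r = −0.54 and Spearman rho = −0.69, and for control2 both were −0.73. Across 14275 tested genes with a length, r was −0.15 and −0.26. The percentage of G and C bases (GC) in the longest transcript also correlated with these 2 differences. Its Pearson r was 0.39 for each across the 49 genes, and 0.16 and 0.20 across the 14275. These correlations describe genes of the same libraries, which are not independent replicates. Thus CENPE and KIF20B had less in KD1 than in KD2, and control2 was the lowest control for both. The part of transcript length or GC in the results was not tested. Without KD1 and control2, a choice made after the values were seen, 45 members were higher in KD2 (12.1% of the genes tested in that fit) and 17 lower in KD3 (1.95%), and calls over all genes were also more frequent than with all libraries.

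**Figure D4:**
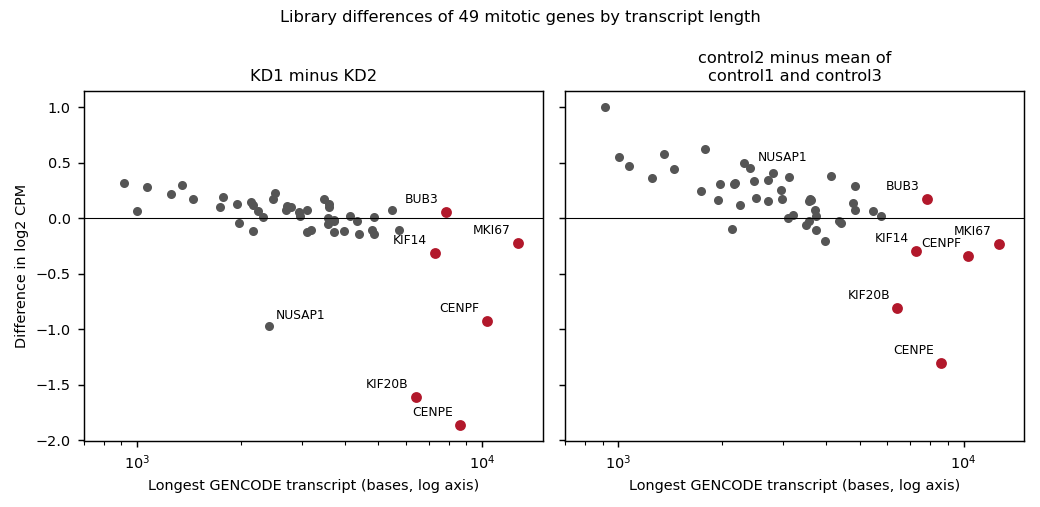
Difference in log2 CPM between KD1 and KD2 (left) and between control2 and the mean of control1 and control3 (right) for the 49 tested mitotic genes, against the longest GENCODE transcript in bases on a log axis. Red points are the 6 genes over 6000 bases, whose medians are −0.62 on the left and −0.32 on the right.

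Both members with almost no counts share most of their exons with a neighbour. PRC1 (ENSG00000198901, chr15:90966038-90995629, minus strand), which bundles midzone microtubules, had 0.405, 0.859 and 0 CPM in KD1, KD2 and KD3, against 0.823, 0 and 0 CPM in the controls. NUSAP1 (ENSG00000137804, chr15:41332694-41381050, plus strand), which bundles spindle microtubules, had 0.878, 1.86 and 0.565 CPM in KD1, KD2 and KD3, against 0.374, 1.06 and 1.37 CPM in the controls. PRC1 had 0 to 12 counts and NUSAP1 5 to 26 in cells where the other midzone genes are abundant, and neither value can be read as a level of expression. In the GENCODE annotation, release 29, 58.4% of the exon bases of PRC1 are also exons of other genes, chiefly AC068831.7 on the same strand, and 62.2% of those of NUSAP1 are exons of AC087721.2 on the same strand. AC068831.7 had 9.59, 8.80 and 1.27 CPM in KD1, KD2 and KD3, against 4.87, 5.85 and 3.52 CPM in the controls, in the same order of libraries as most members, while AC087721.2 had 0 counts in each library. The next highest overlaps were 15.9% for FOXM1, 12.7% for KIFC1, 12.5% for PLK1 and 10.2% for BUB1B, and whether the counting used strand is not given in the sources used here. Near-identical copies of members, such as KIF4B, PTTG2 and AURKAP1, had at most 3 counts in a library.

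Levels between genes were compared per length, as CPM per kilobase of the exons that GENCODE gives a gene over all its transcripts. In the controls TOP2A was the most abundant member, at 84.8 ± 12.2 CPM per kilobase (SD, n = 3), with 179, 194 and 61.8 CPM per kilobase in KD1, KD2 and KD3. TPX2 followed at 71.9 ± 8.98 CPM per kilobase, CCNB1 at 57.4 ± 9.56 CPM per kilobase, UBE2C at 51.2 ± 22.5 CPM per kilobase and CDC20 at 48.7 ± 14.9 CPM per kilobase. Each of these overlaps the next in its range over the controls. At the low end of the well-measured members, CENPM had 4.14 ± 0.993 CPM per kilobase and KIF20B 4.49 ± 1.31 CPM per kilobase. Among the 48 well-measured members in this order, the ranges of neighbours over the controls stood apart between ANLN and AURKA and between KIF18A and FOXM1, and overlapped for the rest. CCNB1 stood above CCNB2, at 26.3 ± 4.65 CPM per kilobase, in each library.

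Other genes of the same pathways, from lists made for these comparisons, followed the members in part, and in the group comparison 0 genes of these lists were called, where 0.105% of all tested genes were higher. For the lists below, the shares over all tested genes were 7.98% higher in KD1, 8.54% higher in KD2 and 0.336% lower in KD3. At the kinetochore, 17 of 26 further proteins were higher in KD1 and 17 in KD2, with medians of 0.90 and 0.89, against −0.19 in KD3. ZWINT, which links the checkpoint to the kinetochore, had 127, 119.7 and 29.1 CPM in KD1, KD2 and KD3, against 40.4, 44.1 and 35.997 CPM in the controls. CENPI, of the inner kinetochore, had 41.6, 43.8 and 7.91 CPM in KD1, KD2 and KD3, against 12.6, 12.6 and 10.3 CPM in the controls. Of the condensins, which compact mitotic chromosomes, 7 of 8 were higher in KD1 and in KD2 (medians 0.97 and 1.27, against −0.33 in KD3). SMC4, the condensin ATPase, had 321, 521 and 176 CPM in KD1, KD2 and KD3, against 209.7, 172 and 179 CPM in the controls. Among spindle and cytokinesis factors 17 of 21 were higher in each of KD1 and KD2, and 1 was lower in KD3. ASPM, a long spindle pole protein, had 156, 310.1 and 64.1 CPM in KD1, KD2 and KD3, against 82.4, 58.5 and 81.5 CPM in the controls, with KD2 again above KD1. DNA replication factors, which peak earlier in the cycle, were higher in 19 of 22 in KD1 and in 19 in KD2 (medians 0.97 and 0.97, against −0.24 in KD3), among them PCNA, the polymerase clamp, with 276, 239 and 79.1 CPM in KD1, KD2 and KD3, against 101, 97.2 and 83.5 CPM in the controls.

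Within the kinesin superfamily the median difference was smaller for the motors that move cargo, and the single values overlap. Of 4 further tested mitotic kinesins 2 were higher in KD1 and in KD2 (medians 0.89 and 0.95, against −0.49 in KD3), KIF18B with 101, 101 and 24.99 CPM in KD1, KD2 and KD3, against 37.95, 34.7 and 31.6 CPM in the controls. Of 17 tested transport kinesins 1 was higher in KD1 and 2 in KD2, with medians of 0.21 and 0.17, against 0.13 in KD3. Over all tested genes 7.98% were higher in KD1 and 8.54% in KD2, so that the transport kinesins stood near these shares. The same shares stand beside the counts of the lists that follow. The highest transport kinesin lay at 0.87 in KD1 and 0.78 in KD2, above KIF18A and, in KD1, above KIF20B and KIF2C. The difference between these 2 kinds of kinesin was not tested. KIF1B, a motor of vesicles and mitochondria, had 105, 135 and 102 CPM in KD1, KD2 and KD3, against 96.1, 64.6 and 79.04 CPM in the controls. Subunits and regulators of the anaphase-promoting complex likewise had small medians, of 0.40 and 0.22 in KD1 and KD2, against −0.03 in KD3, with 2 and 3 of 18 higher. FBXO5, an inhibitor of the complex, was among these, with 103, 93.02 and 29.2 CPM in KD1, KD2 and KD3, against 50.5, 51.5 and 46.6 CPM in the controls. Cohesin and its regulators had 7 and 9 of 16 higher, and centrosome factors 9 and 10 of 23. The G2 checkpoint and CDK1 regulators had 7 and 8 of 11 higher. CDC25A, the phosphatase that acts earlier than CDC25B and CDC25C, had 55.4, 54.7 and 18.4 CPM in KD1, KD2 and KD3, against 16.02, 15.3 and 17.2 CPM in the controls, so that KD3 lay above all controls there. CKS2, a small CDK-binding protein, had 125, 113 and 78.9 CPM in KD1, KD2 and KD3, against 49.3, 61.04 and 42.1 CPM in the controls, also with KD3 above all controls. Of 9 tested MuvB and B-MYB genes 3 were higher in each of KD1 and KD2. MYBL2, which encodes B-MYB, had 173, 156 and 47.2 CPM in KD1, KD2 and KD3, against 53.97, 56.3 and 61.5 CPM in the controls, against a much smaller difference for LIN9, a MuvB subunit, with 36.9, 40.9 and 28.6 CPM in KD1, KD2 and KD3, against 26.6, 22.5 and 25.9 CPM in the controls. Of 7 tested RNAs on a further list, GAS5 alone was lower in KD1 and in KD2, where 7.43% and 7.71% of all tested genes were. It had 142, 119.9 and 557 CPM in KD1, KD2 and KD3, against 355, 471 and 554 CPM in the controls. The list was drawn up as nuclear-retained RNAs, but where GAS5 RNA lay in the cell was not measured. The part of GAS5 in the results was not tested.

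**Figure D5:**
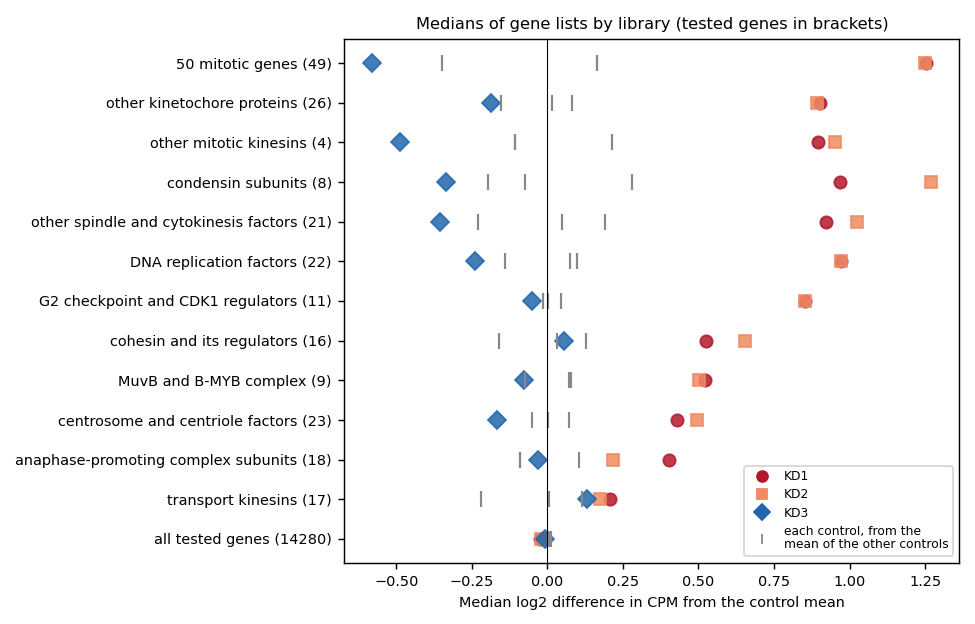
Median log2 difference in CPM from the control mean (horizontal axis) over the 49 tested mitotic genes, over other gene lists and over all 14280 tested genes, for KD1, KD2 and KD3 (symbols) and for each control against the mean of the other controls (grey bars). The mitotic genes have medians of 1.25 in KD1 and KD2 and −0.58 in KD3, and transport kinesins 0.21, 0.17 and 0.13.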

How the data were processed

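Libraries were made from mRNA captured out of Trizol-isolated RNA, per the labels' protocols. Aligner, counter, strand setting and genome build: not given in the sources used here. Raw counts per gene were deposited by the authors, per the file headers, and 6 other columns of per-sample values were not used. Start and end of 58672 of 58735 named genes equal GENCODE release 29 on GRCh38. Columns name groups but not replicate labels. A further 998 of 59733 rows without a gene name took 0.239% to 0.298% of the counts and were left out.

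From the deposited counts, edgeR 4.0.16 in R 4.3.3 was run with filterByExpr by group, TMM, robust glmQLFit, glmQLFTest and Benjamini-Hochberg adjustment over the 14280 genes (threshold 0.05). One fit compared the groups, and another took each HHEX shRNA library as its own level. The log2 CPM used a prior count of 2. DESeq2 1.42.0, other scalings, no filter, a replicate block and leave-one-out were alternatives. The scripts were tested on simulated data.

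Members and lists were chosen with earlier results of these data known. Values in every library are given for HHEX, CCNA2, CCNB1, CCNB2, CDK1, the 3 tested genes of each role with the smallest p, the 3 highest and 3 lowest in each HHEX shRNA library, and genes from the lists by p or size of difference. Of the lists' genes that this rule takes, those not named are within the counts.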

Additional observations from a re-analysis of the deposited data

How the results depend on the processing

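Of 114 recomputed results, 10 moved and 0 reversed. The other 104 kept their direction and their side of the threshold, or stayed within 1.5 times the count or within 1 SD. The SD of the members' library medians was 0.30 over the controls. Pooled over both groups it was 0.78, which holds the gap between KD3 and the other HHEX shRNA libraries. Group medians of 0.58 and 1.26 in place of 0.84 counted as kept, so that this rule says little of the size of the medians. Group against group, the count of members called was 0, and 4 without the filter on low counts, namely ECT2, KIF15, HMMR and MAD2L1 (2.56% of all genes higher). It ran from 0 to 46 when 1 library was left out, and was 46 without KD3 (16.5% of all genes higher). In each of the other such fits at most 1 of all the genes tested was called, so that a count of 0 says little of the members. For KD3 against the controls the count was 1, and 19 without the filter on low counts (0.847% of all genes lower), 17 without KD1 and control2 (1.95%), a choice added after seeing the data, and 1 to 19 when 1 library was left out (2.07% at the highest count). For KD1 against KD2 it was 0, and 2 without the filter on low counts (0.0388%) and 0 to 3 when 1 library was left out (0.129% at the highest count). The cause of these moves was not tested. These settings differ from the main fit in the libraries or the genes that they hold. The median group log2 fold change of the members was 0.84, and 0.58 to 1.26 when 1 library was left out. Whether libraries with the same column number belong together is not given. Deviations of same-numbered libraries correlated at −0.05, −0.07 and 0.12, and those of differently numbered libraries at −0.14 to 0.18. With 3 libraries per group these values cannot decide a pairing. A fit with a replicate block by column number called 0 members, with a median of 0.64. Under upper-quartile scaling the median fitted log2 fold change of all genes was −0.11 in KD1 and −0.12 in KD2, against −0.04 in both by TMM, and the members' medians were 1.16 in both, against 1.22 and 1.24. With 13333245 to 15144176 counts per library, PRC1 had 0 to 12 counts and NUSAP1 5 to 26, too few to be read. At the same depth 48 of the 49 tested members had at least 60 counts in every library. PRC1 and NUSAP1 share 58.4% and 62.2% of their exon bases with other genes, and the part of this in their low counts was not tested. Tests of single libraries carry no replicate of their own.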
